A study of Mus musculus with 55 samples.

Results

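State O is a chromatin state that the study annotated as Polycomb in islets of healthy mice. The deposited list holds 24 letters, A to X, each a state. Every segment that carries the letter O in the deposited list was taken, which gave 95694 of 1653154 segments on the 19 autosomes. They covered 228485000 of 2460433600 segmented bp, or 9.29%. The letters came from the program EpicSeg, which grouped bins of 200 bp by their histone marks, RNA polymerase II and DNA methylation. The list holds letters only, with no level of any mark, and the ChIP-seq signal was not analysed here, so the label rests on the study's annotation and was not checked against H3K27me3. The segments were joined to start sites of genes in GENCODE M21 and to bulk RNA-seq counts, to ask whether genes that start in state O were derepressed when PRC2 was lost.

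The study deleted Eed in β cells of C57B6/J mice with a Cre recombinase driven by the rat insulin promoter (RIP-cre), and the homozygous animals (Eed -/-) are called βEedKO. Bulk RNA-seq was made from whole islets of male mice at 8 and 25 weeks of age. The comparisons use 3 wild type and 3 βEedKO libraries at 8 weeks, and 3 wild type and 2 βEedKO libraries at 25 weeks. Heterozygous libraries, 3 at 8 weeks and 2 at 25 weeks, entered only an alternative in which they were added to the control. The segmentation is of wild type islets, with replicates averaged, so it holds no spread between animals. It combined the study's own ChIP-seq, from male mice, with ChIP-seq of other studies, some of it from female mice. The DNA methylation came from published data on young islets. No wild type ChIP-seq library is labelled 8 or 25 weeks, so a match in age to the RNA-seq cannot be shown. By the study's methods, each 25-week βEedKO library pooled islets of several mice and the other libraries came from fewer. Islets hold α, δ, PP, endothelial and other cells beside β cells, and the deletion reaches β cells, so fewer cells of a type and less RNA per cell cannot be told apart in any result below.

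Polycomb repressive complex 2 (PRC2) places methyl groups on lysine 27 of histone H3, and EED is the subunit that binds the finished trimethyl mark and lets the complex spread it. In most cells the trimethyl mark is strongest at CpG-rich promoters of silent developmental regulators, where it can lie beside H3K4me3 (bivalent chromatin), and weaker, broader H3K27 methylation extends over gene-poor and silent regions outside them. In this segmentation the study annotated L and M as bivalent and N and O as Polycomb.

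Promoter sequences are shown first because promoters in state O and in the bivalent states differ in their CpG content. Each is 300 bases in the direction of transcription, 250 before and 50 after the RefSeq start on GRCm38.p6, with every CpG in capitals. The first 4 belong to the genes of state O with the largest rises among those called at 25 weeks. Lcn2 (chr2:32387690-32387989, minus strand) holds 3 CpG, Itgbl1 (chr14:123659890-123660189, plus strand) 6, Runx3 (chr4:135120395-135120694, plus strand) 8 and Ackr1 (chr1:173333454-173333753, minus strand) 4. The RefSeq start of Lcn2 lies 513 bases from the GENCODE start, and both lie in state O. Ctrb1 (chr8:111690961-111691260, minus strand) and Cela2a (chr4:141825956-141826255, minus strand) are the 2 state O genes with the most reads in wild type islets, and hold 1 and 3 CpG.
Lcn2: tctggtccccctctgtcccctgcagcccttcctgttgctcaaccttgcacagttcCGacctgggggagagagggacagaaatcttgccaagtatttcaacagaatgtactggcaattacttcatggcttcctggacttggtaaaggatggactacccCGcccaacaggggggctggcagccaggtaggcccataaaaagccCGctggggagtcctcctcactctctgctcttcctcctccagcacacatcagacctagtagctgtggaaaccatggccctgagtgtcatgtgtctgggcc
Itgbl1: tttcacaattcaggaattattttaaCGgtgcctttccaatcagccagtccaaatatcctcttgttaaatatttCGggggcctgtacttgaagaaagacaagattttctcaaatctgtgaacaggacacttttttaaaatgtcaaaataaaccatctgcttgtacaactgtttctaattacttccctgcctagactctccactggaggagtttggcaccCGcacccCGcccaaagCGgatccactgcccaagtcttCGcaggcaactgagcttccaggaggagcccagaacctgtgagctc
Runx3: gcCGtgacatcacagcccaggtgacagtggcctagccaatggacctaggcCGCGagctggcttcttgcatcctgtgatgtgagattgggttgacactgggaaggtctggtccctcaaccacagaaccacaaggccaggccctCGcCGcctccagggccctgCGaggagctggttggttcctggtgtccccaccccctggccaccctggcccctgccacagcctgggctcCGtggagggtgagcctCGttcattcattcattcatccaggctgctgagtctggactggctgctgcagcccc
Ackr1: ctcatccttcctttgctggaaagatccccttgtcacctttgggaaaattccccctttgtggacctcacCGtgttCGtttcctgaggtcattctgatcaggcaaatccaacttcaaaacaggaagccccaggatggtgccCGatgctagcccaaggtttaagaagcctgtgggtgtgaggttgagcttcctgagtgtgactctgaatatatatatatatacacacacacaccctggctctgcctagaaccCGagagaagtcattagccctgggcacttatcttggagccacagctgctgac
Ctrb1: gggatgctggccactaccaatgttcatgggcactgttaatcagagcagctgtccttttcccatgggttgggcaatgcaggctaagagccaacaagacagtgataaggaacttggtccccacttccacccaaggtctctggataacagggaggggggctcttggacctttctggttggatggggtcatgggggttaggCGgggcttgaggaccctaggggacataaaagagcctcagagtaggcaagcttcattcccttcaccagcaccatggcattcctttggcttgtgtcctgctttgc
Cela2a: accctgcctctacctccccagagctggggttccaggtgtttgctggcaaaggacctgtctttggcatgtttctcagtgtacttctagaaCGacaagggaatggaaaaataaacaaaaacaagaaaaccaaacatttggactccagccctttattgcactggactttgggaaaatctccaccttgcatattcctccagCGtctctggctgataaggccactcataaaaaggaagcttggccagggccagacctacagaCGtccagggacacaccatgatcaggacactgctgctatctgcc
Trank1 and Zic1, whose start sites lie in the bivalent state M, are shown for contrast. They were chosen as the genes of M with the smallest adjusted p at 25 weeks, and are rich in CpG for M, where the median was 9 and the upper quartile 15.2. Trank1 (chr9:111311489-111311788, plus strand) holds 40 CpG and Zic1 (chr9:91365719-91366018, minus strand) 31.
Trank1: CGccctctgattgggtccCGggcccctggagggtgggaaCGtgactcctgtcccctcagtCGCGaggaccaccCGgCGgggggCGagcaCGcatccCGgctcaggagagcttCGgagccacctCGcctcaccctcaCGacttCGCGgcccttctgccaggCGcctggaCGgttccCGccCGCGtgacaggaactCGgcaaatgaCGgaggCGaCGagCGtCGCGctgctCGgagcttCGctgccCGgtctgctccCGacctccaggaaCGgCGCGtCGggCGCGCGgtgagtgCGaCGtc
Zic1: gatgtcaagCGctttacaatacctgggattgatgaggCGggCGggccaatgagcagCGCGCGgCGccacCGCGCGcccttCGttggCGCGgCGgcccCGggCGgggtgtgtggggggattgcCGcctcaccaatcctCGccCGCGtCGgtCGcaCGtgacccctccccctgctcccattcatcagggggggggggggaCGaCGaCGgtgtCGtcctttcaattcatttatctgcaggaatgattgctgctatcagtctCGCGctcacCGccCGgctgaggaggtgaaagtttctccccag

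State O formed short stretches. The median segment was 1600 bp wide, with quartiles of 800 and 3200 bp, and 10.2% were a single bin of 200 bp. Segments up to 1 kb were 35.4% of the number (33874) and 8.03% of the bases. Those over 5 kb were 10.9% of the number (10454) and 35.5% of the bases. The median lay between 1600 and 1800 bp on every chromosome. State N, the other Polycomb state, had wider segments with a median of 2600 bp, and the bivalent states M and L had narrower ones, 1200 and 400 bp. The widest O segment, 37800 bp at chr11:79074801-79112600, lay in Ksr1, a scaffold of the MAP kinase pathway. The next, 35600 bp at chr4:55652801-55688400, overlapped no annotated gene. Of the 10 widest, 1 held a start site, that of the non-coding RNA Gm1600, in a segment of 29200 bp.

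States K and N, and by less R and I, took more of the borders of O than their numbers among other segments. Over 191189 borders, state K took 23.9%, although K made up 4.18% of the segments other than O. State N took 16.0% of the borders against 3.84% of the segments, R 8.73% against 6.01% and I 3.4% against 3.13%. States P, W and Q took 17.2%, 12.9% and 10.0%, against 17.2% of all other segments for P and 16.0% for Q. The bivalent states were rare neighbours. M took 0.43% of the borders and made up 1.05% of the other segments, and L took 0.0188% against 1.69%. States A, B and D to H had no border with O, and C and J had 1 each. The share of K ranged from 22.5% to 25.3% between chromosomes. Seen from the other side, 25.7% of the borders of N were with O, against 2.52% of those of M and 0.0683% of those of L. The same letter flanked both sides of 17210 O segments (18%), and the commonest pair of flanks was K with N, at 8.76%.

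**Figure D1:**
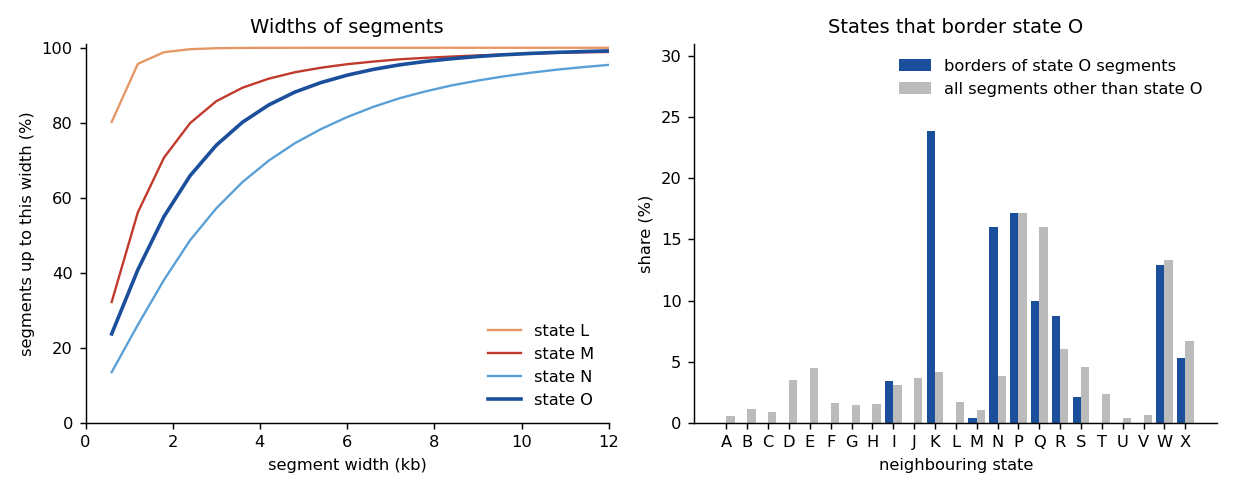
Left, the share of segments (%) that are up to a given width (kb), for states L, M, N and O. Right, the share (%) of the borders of state O segments taken by each neighbouring state (blue), beside the share of that state among all segments other than O (grey). K and N, and by less R and I, stand above their grey bars, and A to H, J and L are at or near 0.

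By position, O looked like the genome as a whole. Intergenic sequence held 53.1% of its bases, introns 41.4% and exons 3.36%, and 2.17% lay within 1 kb of a start site. The same shares over all segmented bases were 53.7%, 40.4%, 3.7% and 2.17%. In state L 47.6% of the bases, in M 12.3% and in N 2.2% lay within 1 kb of a start. O held 45.0% GC and 9.81 CpG per kb, close to N with 9.08 and below M with 17.5, L with 34.3 and state A, which the study annotated as active, with 90.6. Repeats masked in the genome file took 23.5% of its bases, against 79.8% in state S.

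Start sites of 2305 genes lay in state O, or 7.98% of the 28877 protein coding, lincRNA and antisense genes with a state. Of these, 1223 were protein coding, 794 lincRNA and 288 antisense. They lay in 2203 segments, 2.3% of all O segments, and 97 of those segments held 2 or more starts and so share their chromatin between genes. Segments with a start had a median width of 4000 bp and quartiles of 2400 and 6800 bp. A wider segment covers more bases and so holds a start more easily, and the part of this in the width was not tested. Segments up to 1 kb held 146 of the starts, those over 1 to 5 kb 1210 and those over 5 kb 949. The same classes held 8.03%, 56.5% and 35.5% of the bases of O. Promoters in O were poor in CpG. The 300 bases around the GENCODE start held a median of 3 CpG, with quartiles of 2 and 5, against 3 in N, 9 in M, 14 in L, 24 in A and 8 over all genes. Promoters with 15 or more CpG made up 0.564% of those in O, 85.7% in A and 34.9% over all genes. The letters TATAAA were searched from 40 to 15 bases before the start, read in the direction of transcription alone. They occurred in 76 of the O promoters (3.3%), against 4.17% in N, 6.09% in T, 0.689% in A and 2.11% of all promoters.

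The chromatin around these starts was mixed. State O lay at 33.9% of positions 5 kb before the start and at 38.7% of those 5 kb after it, and at 23.7% and 25.9% of those 20 kb away. For 1397 genes (60.6%) O was also the commonest state over the gene body, N was for 285 (12.4%), P for 207 (8.98%) and one of the states A to J for 173. The nearest segment of L or M lay a median of 17.5 kb away, and 190 genes (8.24%) had one within 2 kb. All annotated transcripts started in O for 1719 genes. For the others the gene start used here is the outermost of several starts, and the counts, which sum all transcripts of a gene, do not resolve which was used.

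**Figure D2:**
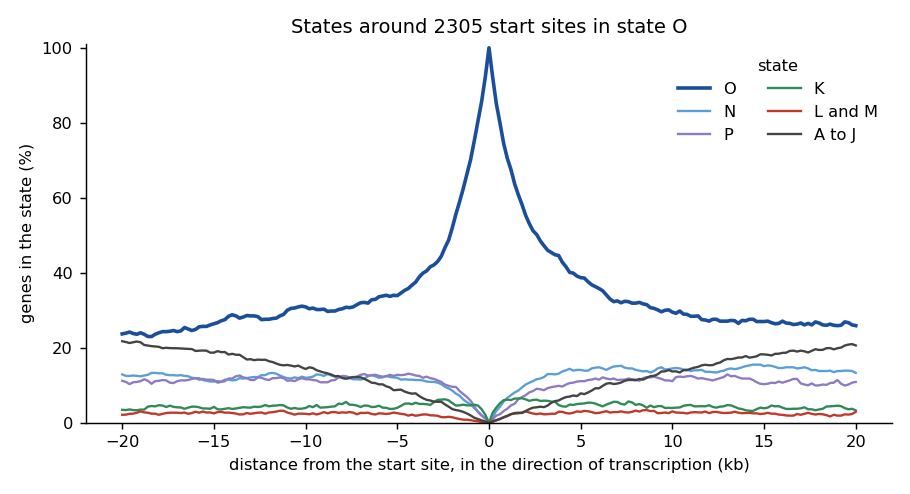
Share of the 2305 genes (%) whose chromatin is in state O, N, P, K, L or M, or A to J, by distance (kb) from the start site in the direction of transcription. O falls from 100% at the start to 33.9% at 5 kb before it and 38.7% at 5 kb after it, and L and M stay low throughout.

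Genes that start in O were mostly silent in wild type islets. Of the 2305, 1858 were counted in the RNA-seq. Levels are in CPM, reads scaled to a common library size with TMM factors, and not per gene length, so levels are compared between libraries and not between genes. At 8 weeks the median gene had 0.0388 CPM, and 408 genes (22.0%) had at least 1 CPM, 172 at least 10 CPM and 27 at least 100 CPM. None of the 6 wild type libraries held a read of 635 genes. In the 2 βEedKO libraries at 25 weeks together, 445 of these 635 still had 0 reads, 182 had 1 to 9 and 8 had 10 or more, with 29 the highest. The 635 were chosen for 0 reads in wild type, so their counts could only stay or rise. The reverse choice was not made, so these counts give no direction. A count of 0 allows up to 3 reads per library, for counting error only. The share of O genes with at least 1 CPM was 19.7% to 21.9% in the wild type libraries at 25 weeks and 25.7% and 27.0% in the βEedKO libraries, which did not overlap. At 8 weeks it was 18.2% to 23.6% in wild type and 20.2% to 23.9% in βEedKO, which did. In state M the shares at 25 weeks were 21.3% to 26.9% and 47.5% and 49.1%. In N they were 9.53% to 13.1% and 17.6% and 17.2%, and in L 57.6% to 60.7% and 73.8% and 75.7%. The groups were thus apart in each of these states too, and the share over all genes was not computed.

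The targeted gene was checked first. Eed had 23.9, 33.1 and 31.2 CPM in wild type and 14.9, 13.4 and 14.8 CPM in βEedKO at 8 weeks, and 28.3, 22.0 and 19.3 against 15.6 and 14.2 CPM at 25 weeks. The groups did not overlap at either age. The log2 fold change was −1.04 (SE 0.217) at 8 weeks and −0.69 (SE 0.246) at 25 weeks, with adjusted p of 0.0881 and 0.142 in edgeR's quasi-likelihood test (n = 3 against 3 and 3 against 2), and DESeq2 gave 0.00284 at 8 weeks. Total counts ranged from 4645393 to 22925359 over the 16 libraries. Summed β cell markers were at 11900 to 15000 CPM in βEedKO and 111000 to 190000 CPM in wild type at 25 weeks, and 6 of 7 were called lower. Summed acinar markers ranged from 31100 to 224000 CPM in wild type at 25 weeks and lay at 405000 and 12900 CPM in βEedKO replicates 2 and 3, which also had the TMM factors farthest apart, 0.772 and 1.56. None of the markers searched was at 0 reads in all 11 libraries.

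At 25 weeks few of the genes that start in O passed the test in either direction. The filter on low counts left 670 of the 1858 counted genes, 36.1%, against 24.2% in N and 57.4% in M. Because a gene could pass the filter through the group in which it was high, counts over the tested genes are descriptions. Of these 670 genes, 17 were called higher in βEedKO (2.54%) and 9 lower (1.34%) at an adjusted p under 0.05, where 4.58% of all 18685 genes tested were called higher and 2.02% lower. The called share of O genes lay under the background in both directions. With library size alone in place of TMM scaling, 16 were called higher and 5 lower (0.746%, against 0.423% of all genes). For rises the share of O genes lay above that of all genes under some settings. When heterozygous libraries were added to the control, 73 O genes were called higher, 10.8% against 9.71% of all genes, and with the replicate number as a block and library size alone 78 were, 11.6% against 8.89%. Of 1668 tested genes with any annotated transcript start in O, 157 were called higher (9.41%), and of 298 with all starts in O 3 were (1.01%). In N 39 of 508 genes were called higher (7.68%) and 0 lower, in M 236 of 869 (27.2%) and 2, and in L 344 of 2430 (14.2%) and 40. The count of rises rested on single libraries. Leaving out a 25-week library gave 4 rises (βEedKO replicate 2 or wild type replicate 3), 5 (βEedKO replicate 3 or wild type replicate 4) or 17 (wild type replicate 2). The share of all genes called higher without one of the first 4 of these libraries was also lower, at 1.41% to 2.01%. Leaving out an 8-week library gave 10 (βEedKO replicate 4), 11 (wild type replicate 4), 30 (βEedKO replicate 1) or between 14 and 23 (the other 3). There were 4 or 5 falls when any of those first 4 libraries was left out, and without βEedKO replicate 2 their share, 0.678%, lay above that of all genes, 0.432%.

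Regardless of the threshold, more tested O genes lay above wild type than below it. In 244 of the 670 genes (36.4%) both βEedKO libraries at 25 weeks lay above all 3 wild type libraries, where 24.7% of all genes did. That share was 45.1% in N, 68.9% in M and 53.1% in L. It was 32.7% in P and 36.7% in Q, so it was not particular to O. In 51 (7.61%) both lay below, where 15.9% of all genes did. At an unadjusted p under 0.05, 111 had a positive and 27 a negative change, where 12.9% of all genes were higher and 7.42% lower. Median log2 fold changes of the tested genes were 1.35 in N, 2.08 in M, 0.94 in L, 1.06 in P and 1.04 in Q. The median log2 fold change of the tested O genes was 0.90, against 0.03 over all genes tested. A rise helps a low gene to pass the filter, so this median is a description and supports no shift. Over the 453 genes with a mean of at least 1 CPM over the 11 libraries it was 0.681, against −0.0234 over all genes of that level, and over the 307 with at least 3 CPM it was 0.458, against −0.0774. These means include the βEedKO libraries, so a gene can pass these filters too through a rise.

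**Figure D3:**
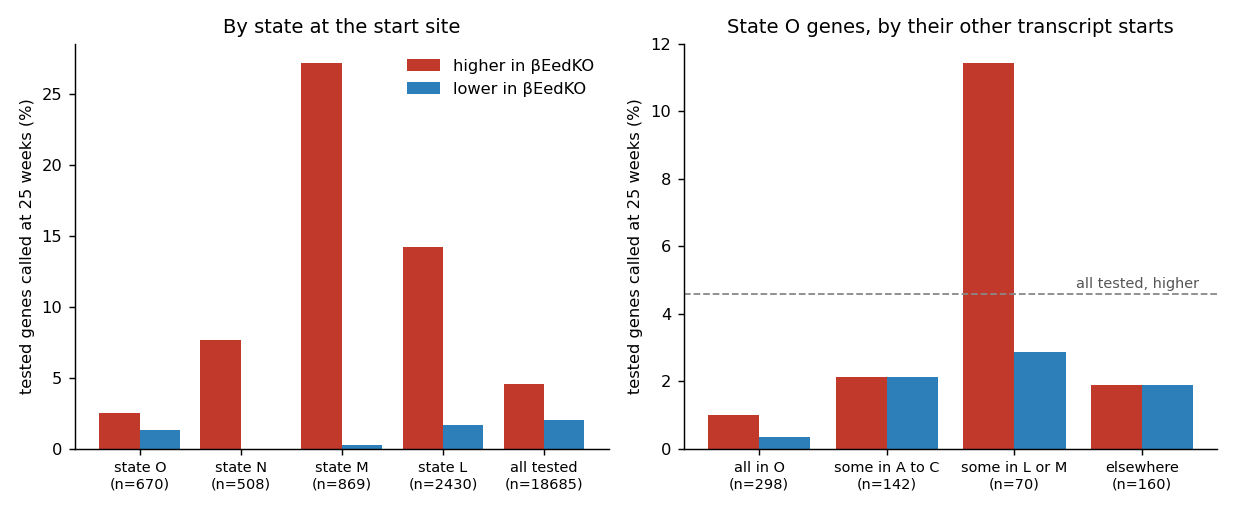
Left, the share of tested genes (%) called higher (red) or lower (blue) in βEedKO at 25 weeks, by the state at the start site, with the number tested under each bar. Right, the same for state O genes split by where their other annotated transcripts start, with the 4.58% of all tested genes called higher as a dashed line. O stands below N, M and L on the left, and on the right genes with another start in L or M stand highest.

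The 17 rises had unlike functions, and 8 of them had no more than 2 CPM in any wild type library at 25 weeks. Lcn2, a secreted lipocalin that binds bacterial siderophores, had 0.654, 0.226 and 0.696 CPM in wild type and 15.0 and 9.28 CPM in βEedKO at 25 weeks. It rose by 4.53 (log2 fold change, SE 0.891, adjusted p = 0.0144), the largest rise called. At 8 weeks it had 5.84, 4.24 and 2.44 CPM in wild type and 41.3, 3.81 and 26.5 CPM in βEedKO, which overlapped. Its 6 annotated transcripts all start in O, in a segment of 9000 bp.

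Itgbl1, a secreted protein with repeats like those of β integrins, had 0.436, 0.978 and 0.542 CPM in wild type and 11.7 and 9.37 CPM in βEedKO at 25 weeks. Both βEedKO libraries lay far above the wild type range, and the log2 fold change was 3.89 (SE 0.73, adjusted p = 0.0112). At 8 weeks the groups overlapped, with 0.254 to 1.8 CPM in wild type and 0.519 to 1.2 CPM in βEedKO. Col6a1 and Col9a3, chains of collagen VI and of the cartilage collagen IX, are the other matrix genes called. Col6a1 had 8.07, 8.28 and 7.19 CPM against 27.2 and 19.7 CPM at 25 weeks (log2 fold change 1.53, SE 0.32, adjusted p = 0.0195, or 0.0681 with the replicate number as a block). It was also higher in every βEedKO library at 8 weeks, with 11.6 to 24.6 CPM against 6.25 to 7.17 CPM, where its adjusted p was 0.098. Col9a3 had 0.436, 0.15 and 0.542 CPM against 2.89 and 2.42 CPM at 25 weeks (2.78, SE 0.691, adjusted p = 0.0397, or 0.0695 with the block). Its exons overlap those of Tcfl5 on the other strand, and the library kit does not mark strand.

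Runx3, a runt-domain transcription factor of T cells and neurons, was the single member of the list of homeobox and developmental transcription factors that was tested. It had 1.09, 0.903 and 0.464 CPM in wild type and 12.3 and 12 CPM in βEedKO at 25 weeks, with no overlap (log2 fold change 3.87, SE 0.929, adjusted p = 0.0343). Of its 6 transcripts 1 starts in O, 3 start in M and 2 in L, so its reads need not come from the O promoter. Ackr1, the atypical chemokine receptor of venular endothelium and red cells, had 1.74, 0.376 and 0.0774 CPM against 9.82 and 7.51 CPM (3.74, SE 0.908, adjusted p = 0.0356, or 0.0842 with the block). All 3 of its transcripts start in O, but its exons overlap those of Cadm3 on the same strand. Summed endothelial markers were at 359 to 430 CPM in wild type and 363 to 438 CPM in βEedKO at 25 weeks, with 0 of 6 called. The part of endothelial cells in the rise of Ackr1 was not tested.

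The 3 rises that stayed called under all 20 alternative settings were Camk4, Crhr2 and Pik3cd. Camk4, a calcium and calmodulin-dependent kinase, had 3.27, 1.13 and 1.32 CPM in wild type and 19.3 and 23.2 CPM in βEedKO at 25 weeks. This was the rise with the smallest adjusted p, at 0.00173 (log2 fold change 3.51, SE 0.441), and the gene was already higher in every βEedKO library at 8 weeks, with 5.8 to 8.53 CPM against 2.6 to 3.5 CPM (1.19, adjusted p = 0.356). Its exons overlap those of 2310026I22Rik on the other strand. Crhr2, a receptor for urocortins, had 1.09, 0.752 and 1.24 CPM against 6.7 and 8.64 CPM at 25 weeks (2.85, SE 0.424, adjusted p = 0.00382). Its 8-week levels were also apart, at 1.16 to 1.75 CPM in wild type and 2.21 to 3.55 CPM in βEedKO (adjusted p = 0.47). Pik3cd, the catalytic PI3 kinase subunit used mainly by leukocytes, had 3.27, 2.41 and 2.63 CPM against 13.4 and 11.4 CPM at 25 weeks (2.12, SE 0.33, adjusted p = 0.00443). Each of the 3 also has annotated starts outside O. Pik3cd has 8 of 14 annotated starts in L, Crhr2 4 of 9 and Camk4 1 of 4.

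Of the other rises, 4 were also in genes of signalling pathways. Gng2, a G protein γ subunit, had 12.2, 5.42 and 5.8 CPM in wild type and 34.7 and 32.5 CPM in βEedKO (log2 fold change 2.08, SE 0.435, adjusted p = 0.0192), 5 of its 6 transcripts start in L, and its exons overlap those of Gm48283 on the other strand. Prr5, a component of mTOR complex 2, had 1.09, 0.451 and 0.542 CPM against 4.11 and 3.75 CPM (2.53, adjusted p = 0.0418, or 0.116 with the block). Fgfr1, an FGF receptor, rose by 1.22 (adjusted p = 0.0276), 1 of its 19 transcripts starts in O, and its exons overlap those of Gm16159 on the other strand. Ubash3b, a phosphatase that dampens tyrosine kinase signals, rose by 1.67 on the log2 scale (adjusted p = 0.0413, or 0.0877 with the block). Fgfr1 and Ubash3b lie outside the rule for named genes and are given because they were called.

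The rest of the rises were a transporter, a myosin, a crystallin-like gene and an MHC gene. Abcg2, an efflux pump of xenobiotics, had 4.36, 3.16 and 4.02 CPM in wild type and 16.4 and 16.8 CPM in βEedKO at 25 weeks (log2 fold change 2.07, SE 0.367, adjusted p = 0.00857, or 0.0647 with the block). Myo15b, an unconventional myosin, had 19.4, 26.9 and 32.3 CPM against 97.6 and 160.0 CPM (2.23, SE 0.562, adjusted p = 0.0413). Its exons overlap those of Recql5 on the other strand. Crybg2 had 1.96, 1.35 and 0.851 CPM against 4.19 and 16.9 CPM (2.90, SE 0.742, adjusted p = 0.044, or 0.203 with the block), so the βEedKO libraries differed from each other by more than the lower one differed from wild type. Without βEedKO replicate 3 the log2 fold change of Crybg2 was 1.58 (adjusted p = 0.416), and its exons overlap those of Cd52 on the other strand. H2-Eb1, a chain of MHC class II, had 68.5, 44.8 and 41.9 CPM against 123.0 and 117.0 CPM (1.17, SE 0.299, adjusted p = 0.0442, or 0.0982 with the block). Beside these rises, summed fibroblast markers at 25 weeks were at 170 to 251 CPM in wild type and 390 to 535 CPM in βEedKO (4 of 8 called higher), duct markers at 266 to 326 and 587 to 731 CPM (3 of 7 higher), macrophage markers at 55 to 106 and 97.2 to 333 CPM (1 of 6 higher), and lymphocyte markers at 27.8 to 48.6 and 41.3 to 51.1 CPM. Their part in the rises was not tested.

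**Figure D4:**
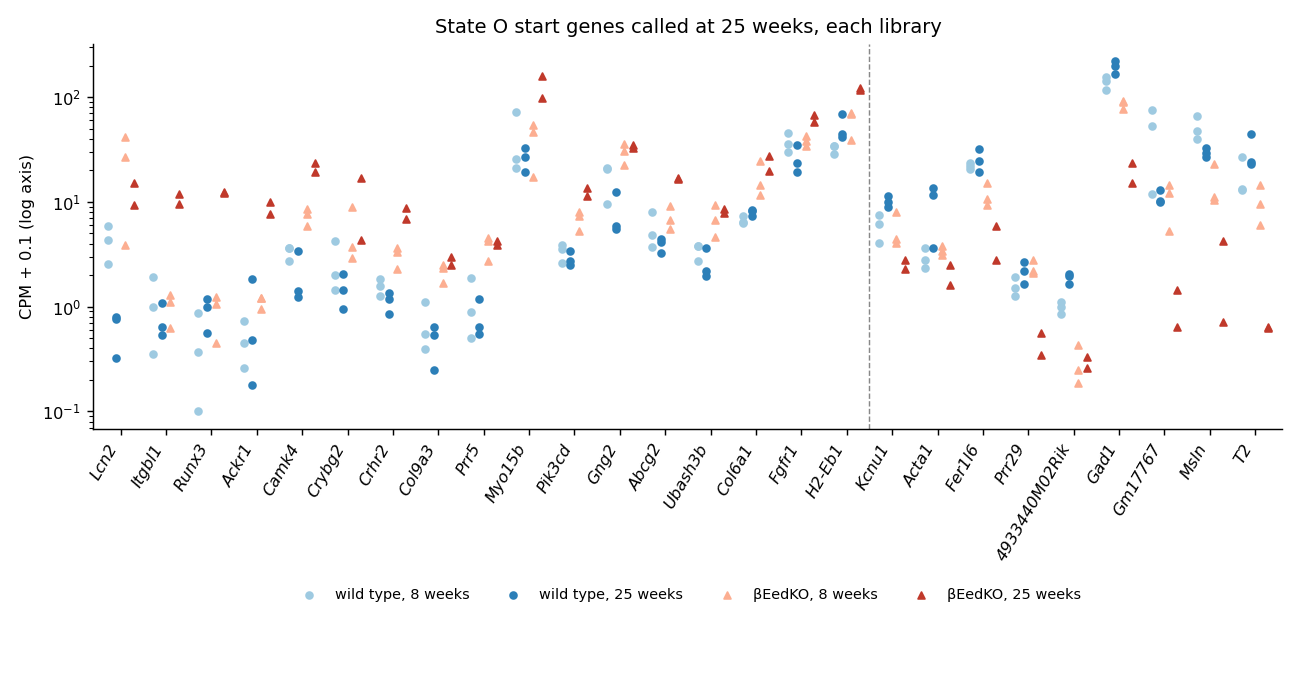
Level of the 26 called genes in each wild type (circles) and βEedKO (triangles) library at 8 and 25 weeks, as CPM + 0.1 on a log axis. Rises stand left of the dashed line and falls right of it, each ordered by log2 fold change. The 25-week groups do not overlap for any of the 26, which were chosen on these same values. Of all genes tested, both βEedKO libraries lay above all wild type libraries for 24.7% and below for 15.9%.

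The 9 falls included some of the genes of O with clear levels in wild type islets. T2, which starts in a segment of 1800 bp, had 44.7, 24 and 22.8 CPM in wild type and 0.533 and 0.525 CPM in βEedKO at 25 weeks. It fell by 5.88 on the log2 scale (SE 0.608, adjusted p = 0.000583), the largest change among the 26 called genes. Its exons overlap those of AC164431.1 on the same strand and Gm16702 on the other. At 8 weeks it had 26.7, 12.8 and 13.3 CPM against 14.3, 5.92 and 9.43 CPM, and the groups overlapped. Gad1, the enzyme that makes GABA, had 166.0, 219.0 and 200.0 CPM in wild type and 14.9 and 23.5 CPM in βEedKO at 25 weeks, a fall of 3.40 (SE 0.277, adjusted p = 0.00017). At 8 weeks its βEedKO libraries lay between 77.7 and 90.8 CPM and wild type between 118.0 and 155.0 CPM (log2 fold change −0.68, adjusted p = 0.348). Of its 8 annotated transcripts 1 starts in O and 4 in A, so the letter at the outermost start does not describe the gene's active promoters.

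Msln, the mesothelial surface protein mesothelin, had 32.5, 29.0 and 27.0 CPM in wild type and 4.11 and 0.606 CPM in βEedKO at 25 weeks (log2 fold change −3.74, SE 0.711, adjusted p = 0.0119). Without βEedKO replicate 2 the log2 fold change of Msln was −5.66. At 8 weeks it lay between 39.9 and 66.4 CPM in wild type and between 10.3 and 23.0 CPM in βEedKO, again without overlap (−1.80, adjusted p = 0.308). Fer1l6, a ferlin, had 19, 32.2 and 24.4 CPM against 2.66 and 5.77 CPM at 25 weeks (−2.63, SE 0.385, adjusted p = 0.00359). T2, Gad1, Msln and Fer1l6 were the falls that stayed called at 25 weeks under all 20 alternative settings. The lincRNA Gm17767 had 10.0, 9.93 and 12.8 CPM against 0.533 and 1.33 CPM (−3.54, SE 0.814, adjusted p = 0.029).

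The remaining 4 falls had at most 13.4 CPM in any wild type library at 25 weeks. At 8 weeks Acta1, the skeletal muscle actin, had 2.22, 3.55 and 2.7 CPM in wild type and 3.04, 3.66 and 3.29 CPM in βEedKO. At 25 weeks it had 3.49, 11.6 and 13.4 CPM in wild type and 1.52 and 2.38 CPM in βEedKO (log2 fold change −2.34, SE 0.562, adjusted p = 0.0343, or 0.0772 with the block). The call was lost under 12 of the 20 alternative settings. Kcnu1, a potassium channel of sperm, had 9.81, 11.4 and 8.9 CPM against 2.21 and 2.7 CPM (−2.08, SE 0.412, adjusted p = 0.0148). For the lincRNA 4933440M02Rik the value was −3.23 (adjusted p = 0.0226, or 0.0877 with the block), and for Prr29 −2.64 (adjusted p = 0.0201, or 0.0976 with the block). Of the 26 called genes, 4 had all transcripts starting in O, the rises of Lcn2, Ackr1 and Col9a3 and the fall of Acta1.

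At 8 weeks no O gene was called by edgeR's quasi-likelihood test in either direction (0 higher and 0 lower of 670), where 0.428% of all genes tested were called higher and 0.00535% lower. At an unadjusted p under 0.05, 46 were higher and 13 lower, where 5.85% and 2.02% of all genes were. DESeq2 called 13, 11 higher (1.59% of the O genes to which it gave an adjusted p, against 1.77% of all genes) and 2 lower (0.288% against 0.141%), and 6 of the 13 were also among the 26 genes called at 25 weeks, namely Lcn2, Prr5, Pik3cd, Col6a1, Msln and Gm17767. The median log2 fold change was 0.17 at 8 weeks, against 0.00 over all genes tested. It was 0.03 without βEedKO replicate 4 and 0.50 without wild type replicate 1. Of the 17 rises at 25 weeks 16 had a log2 fold change above 0 at 8 weeks (0.00 when rounded for Myo15b), and all 17 had a larger one at 25 weeks. The ages use different libraries, but the 17 were chosen on their 25-week values. The difference of the change between ages was past the threshold for 2 genes, Gad1 and T2, both with the lower value at 25 weeks, where 0.107% of all genes were. With the replicate number as a block the adjusted p was 0.0611 for both, past the threshold for neither.

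The O genes were also split by their chromatin, and all values are descriptions. A share called depends on a gene's level as well as its change, and a rise helps a low gene to be tested. By width of the segment there was little to see, with 1 of 43 tested genes called higher in segments up to 1 kb (2.33%), 9 of 340 from 1 to 5 kb (2.65%) and 7 of 287 over 5 kb (2.44%). By distance to the nearest L or M segment, 4 of 97 genes within 2 kb (4.12%), 10 of 210 between 2 and 10 kb (4.76%) and 3 of 363 beyond 10 kb (0.826%) were called higher. By gene body, 10 of 359 genes with a body in O (2.79%), 2 of 78 in N and 2 of 131 in A to J (1.53%) were. A split by the other annotated starts was chosen after the values were seen. Of 298 tested genes with all starts in O, 3 were called higher (1.01%), and of 70 with another start in L or M and none in A to C, 8 were (11.4%). Of 142 with another start in A to C 3 were (2.11%), and 99.3% of these had at least 1 CPM in wild type at 8 weeks, against 10.2% of those with all starts in O. The median log2 fold changes of the tested genes at 25 weeks were ordered otherwise. By distance they were 0.487 within 2 kb, 0.641 from 2 to 10 kb and 1.24 beyond. With all starts in O the median was 1.29, and with another in L or M and none in A to C 1.06. Median wild type levels at 8 weeks were 0.588 CPM within 2 kb and 0.0211 CPM beyond 10 kb. They were 0.0 CPM with all starts in O and 1.67 CPM with another in L or M. None of these differences was tested.

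The state at the start and the state over the body divided the rises differently. Over all 4064 genes whose body was mostly O, 1879 were tested and 208 (11.1%) were called higher at 25 weeks. By start state, 116 of 630 that start in L (18.4%), 35 of 213 in M (16.4%), 19 of 152 in B (12.5%), 8 of 88 in A (9.09%), 6 of 122 in N (4.92%) and 10 of 359 in O (2.79%) were. Bodies in O below a bivalent start held most of these 208 called rises, and bodies and starts both in O held 10. The median log2 fold changes of the tested genes were closer, at 1.36 for starts in L, 1.45 in M, 1.38 in N and 1.17 in O. They were 0.69 for starts in B and 0.23 in A. The filter left 86.7% of the counted genes for starts in L and 31.8% for starts in O. None of these differences between start states was tested.

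By function, 1913 of the 2305 genes that start in O fell in none of the lists searched. The counts below stand beside the 7.98% of all genes that start in O and, for rises, the 4.58% of all genes and 2.54% of O genes called higher at 25 weeks. Immune receptors and cytokines were the list with the most members, with 86 of the 608 that have a state (14.1%), of which 55 were tested and 1 rose, H2-Eb1. Keratins and epidermal proteins (31 of 175, 17.7%) and muscle proteins (15 of 80, 18.8%) had the highest shares of members in O. Of 3 tested keratin genes 0 passed in either direction, and of 12 tested muscle genes 1 was lower, Acta1. Solute carriers and ABC transporters (45 of 435) gave 1 rise in 23 tested, Abcg2, and extracellular matrix genes (12 of 168) gave 3 rises in 10 tested, Itgbl1, Col6a1 and Col9a3. Cytochrome P450 and conjugating enzymes (35 of 256), germ cell genes (35 of 344) and proteases and their inhibitors (31 of 269) had 15, 9 and 16 tested members, and 0 of these passed in either direction. Of the developmental regulators, the classic Polycomb targets, few start in O, at 5 of 334 (1.5%), and of the 5 Runx3 was the one tested. Olfactory and vomeronasal receptors had 31 of 1514 (2.05%), synaptic genes 0 of 124 and cell cycle inhibitors 0 of 10.

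Of the 6 genes of O with the most reads in wild type islets, 5 are products of the exocrine pancreas. Ctrb1, chymotrypsinogen B, had 42300, 14600 and 8380 CPM in wild type at 8 weeks, 18000, 7090 and 53600 CPM in wild type at 25 weeks, and 103000 and 4240 CPM in βEedKO at 25 weeks. The wild type libraries lay between the 2 βEedKO libraries (log2 fold change 1.00, SE 1.2, adjusted p = 0.712). Cela2a, an elastase, Clps, the cofactor of pancreatic lipase, Klk1, a kallikrein, and Sycn, a zymogen granule protein, followed the same libraries, and none was called. Without βEedKO replicate 2 at 25 weeks the log2 fold change of Ctrb1 was −2.70 and that of Cela2a −3.49. The sixth, the chaperone Hsp90aa1, had 326, 1380 and 1340 CPM at 8 weeks in wild type, and 6 of its 8 transcripts start in A. In which cells of the islet preparation a segment held its letter cannot be told from these files.

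**Figure D5:**
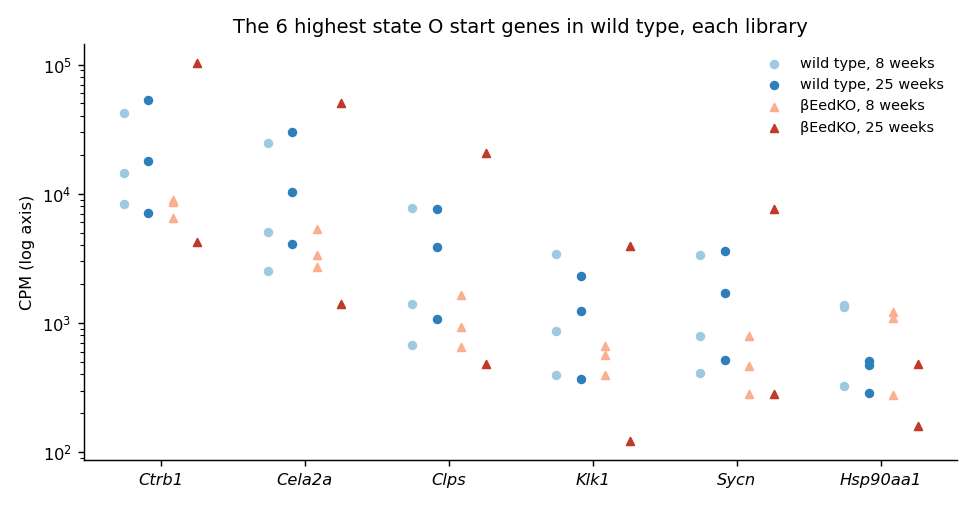
Level (CPM, log axis) of the 6 genes of state O with the highest mean in wild type at 8 weeks, in each wild type (circles) and βEedKO (triangles) library. For the first 5 one 25-week βEedKO library lies above and the other below all wild type libraries of that age, and Hsp90aa1 had 326 to 1380 CPM in wild type at 8 weeks.

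Genes in the widest O segments were silent or uneven. Lyz2 and Lyz1, near-identical lysozymes of macrophages and Paneth cells whose reads the counting could have split, start in 1 segment of 26400 bp. Lyz2 had 75.7, 38.6 and 25.8 CPM in wild type and 239.0 and 36.0 CPM in βEedKO at 25 weeks (log2 fold change 1.52, adjusted p = 0.396). Lyz1 had 3.71, 0.0752 and 0.464 CPM against 11.0 and 181.0 CPM (6.41, SE 2.1, adjusted p = 0.107), so a single library carried most of its reads. The log2 fold change of Lyz1 was 3.10 to 8.38 with a library left out, and it was called with no filter (adjusted p = 0.0209), the replicate block and library size alone (4.44e-10), wild type replicate 1 of 8 weeks left out (0.0483) and the control that includes heterozygous libraries (0.0156). The antisense gene Gm15684, in a segment of 28000 bp, had 0 reads in every wild type library and 7 in the 25-week βEedKO libraries. Gm11958 and Gm11959, which share a segment of 25800 bp, had 0 reads in all 11 libraries. Ocstamp, an osteoclast fusion protein in a segment of 23800 bp, was tested and did not pass (1.85, adjusted p = 0.53).

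Of 74 cell type markers 6 start in O, close to the 7.98% of all genes that do, and of the listed subunits of PRC2 and PRC1 none does. Beside Ctrb1, Cela2a and Lyz2 these were Emcn of endothelium, S100b of Schwann cells and Plin1 of fat cells. Their log2 fold changes at 25 weeks were −0.37 (adjusted p = 0.318), 0.40 (adjusted p = 0.886) and −3.02 (SE 2.09, adjusted p = 0.474), and none passed the test.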

How the data were processed

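Bulk RNA-seq counts of whole islets were joined to the state letters. Per the labels and the study's methods, the authors mapped reads of TruSeq RNA v2 libraries to GRCm38 with TopHat2 2.0.13 and deposited the raw count per gene of Gencode M9 from featureCounts (the submitters' processing notes list Subread 1.5.0-p1 and 1.4.6). Use of strand in counting is not stated. The segmentation is the authors' pooled one, in bins of 200 bp. The deposited ChIP-seq signal, single-cell and human data were not used here. Count columns left unused numbered 0.

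A gene was placed in state O when the 5′ end of its GENCODE M21 entry lay in an O segment, and counts were joined by gene identifier. Of the 2305 genes, 1320 had a promoter entry in RefSeq. CpG counts over all genes used 300 bases of GRCm38 around the GENCODE start. Tests used edgeR 4.0.16 and, as an alternative, DESeq2 1.42.0, under R 4.3.3. The quasi-likelihood test was fitted on 4 groups (11 libraries) with TMM factors and filterByExpr, which left 18685 genes, and p-values were adjusted by Benjamini-Hochberg over all of them, with a threshold of 0.05. The common biological coefficient of variation was 0.456. Fold changes are on the log2 scale, βEedKO over wild type. Total counts of 4645393 to 22925359 per library, and a floor of 3 reads where a count is 0, cover counting error only. p-values measure the spread between these libraries. No pair of libraries of a group agreed within sampling noise (chi-square per degree of freedom 31.03 to 591.6). Each script with a test across genes was first tested on simulated data.

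The labels number the replicates. Deviations from the group means over 18685 genes were compared between same-numbered wild type and βEedKO libraries of an age. At 8 weeks r was 0.46 (replicate 1) and 0.166 (replicate 4). At 25 weeks r was 0.177 (replicate 2) and 0.257 (replicate 3). Genes are not independent replicates. Libraries with unlike numbers were not compared, so these values do not show that the number marks a pairing. With 2 βEedKO libraries at 25 weeks, the deviations of one mirror those of the other, so the values of r at that age are not independent. A fit with the number as a block was made as an alternative, and its p is given where it changes a call. Libraries without a partner add nothing to that fit.

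The segments, genes and gene lists were chosen with earlier results of these data known. Named genes are, for each age, up to 12 largest rises and 6 largest falls among genes past the threshold with at least 1 CPM in a group and no overlap between groups, the 6 highest in wild type at 8 weeks, those starting in the 5 widest segments that hold a start, up to 2 called genes of each list, cell type markers and genes past the threshold for the difference between ages. Alternatives in scaling, filter, test, block, control, libraries, start sites and biotype were run.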

Additional observations from a re-analysis of the deposited data

Results flagged for a closer look

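The knockout effect differed between ages for 2 genes that start in state O, by edgeR's quasi-likelihood test of the difference with adjustment over all genes. For Gad1 the log2 fold change at 25 weeks minus that at 8 weeks was −2.72 (SE 0.332, adjusted p = 0.00967), with both 25-week βEedKO libraries (14.9 and 23.5 CPM) below all 3 at 8 weeks (77.7 to 90.8 CPM). For T2 it was −5.06 (SE 0.685, adjusted p = 0.0194), with 0.533 and 0.525 CPM at 25 weeks and 5.92 to 14.3 CPM at 8 weeks. With the replicate number as a block the adjusted p was 0.0611 for each. Library size alone gave Gad1 0.293, and the fit that left out βEedKO replicate 2 of 25 weeks gave it 0.0953. T2 had an adjusted p of 0.0518 to 0.172 when either 25-week βEedKO library, βEedKO replicate 5 of 8 weeks or wild type replicate 3 or 4 of 8 weeks was left out. Summed β cell markers were at 116000 to 194000 CPM in βEedKO at 8 weeks and at 11900 to 15000 CPM at 25 weeks, and their part in the difference was not tested.

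A heterozygous library, replicate 2 at 8 weeks, which entered the comparisons only as an added control in an alternative, held fat and muscle genes at levels seen in no other library. Plin1, the coat protein of fat droplets, had 295.0 CPM there, where the highest of the other 15 libraries had 17.8 CPM. Acta1, the skeletal muscle actin, had 209.0 CPM, against at most 13.4 CPM elsewhere. In all, 147 genes had at least 10 CPM in that library and at least 5 times the level of every other library, and 21 of them start in O, where 7.98% of all genes with a state do, among them Cidec, Atp2a1, Tnnt3, Ttn and Myl1. In the library with the next highest number, 11 genes did, 2 of them in O. The source of these reads was not tested.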

How the results depend on the processing

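The number of O genes called higher at 25 weeks (17) was 26 with no filter on low counts, 78 with the replicate block and library size alone, 73 with wild type and heterozygous libraries pooled, 26 with each age on its own, 37 with DESeq2, 3 for genes with all transcripts in O, 157 for genes with any transcript in O and, chosen after seeing the data, 7 for genes with no start in L or M. It was 14 with the replicate block alone, and 4 to 30 with a library left out. The share of all genes called higher moved too, from 4.58% to 3.47% with no filter, 8.89% with the block and library size alone, 9.71% with pooled controls, 6.03% with each age on its own, 6.51% with DESeq2 and 3.16% with the block, and that of O genes from 2.54% to 1.76%, 11.6%, 10.8%, 4.72%, 5.03% and 2.09%. The number called lower (9) was 5 with library size alone, 1 for all transcripts in O, 19 for any transcript in O, 8 with the replicate block, and 4 to 11 with a library left out. At 8 weeks the number higher (0) was 1 with no filter, 7 with the block and library size alone, 16 with pooled controls, 11 with DESeq2 and 15 for any transcript in O, and 0 to 1 with a library left out. The number lower (0) was 1 with the block and library size alone, 2 with pooled controls and 2 with DESeq2, and 0 to 0 with a library left out. The number for the difference between ages (2) was 1 with library size alone, 0 with the block, 19 with the block and library size alone, 5 with pooled controls, 8 with DESeq2, 0 for all transcripts in O and 0 to 3 with a library left out, and could not be had with each age on its own.

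The median log2 fold change of O genes at 25 weeks (0.90) was 1.07 with library size alone, 1.10 with no filter, 0.85 with a filter of 1 CPM in at least 2 libraries, 0.81 with the replicate block, 1.07 with pooled controls, 0.73 with each age on its own, 0.78 with DESeq2, 1.29 for all transcripts in O and 1.10 for any, and 0.62 to 0.99 with a library left out. At 8 weeks (0.17) it was 0.37 with library size alone, 0.36 with the block and library size alone, 0.32 for all transcripts in O and 0.03 to 0.50 with a library left out. Library size alone moved the median of all genes to 0.265 at 25 weeks and 0.205 at 8 weeks. The median width was 2000 bp without single bins and 1800 bp on the highest chromosome, the share of borders with K 22.5% and 25.3% on the lowest and highest chromosome, and the number of genes 3629 with any transcript in O and 1223 for protein coding genes. The share of genes with at least 1 CPM was 19% to 23.1% with a wild type library left out. The causes were not tested.

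Of the 26 called genes, 7 stayed called under all 20 alternatives, 19 were lost under 1 or more, 11 of them with the replicate block, and 0 changed sign. DESeq2 called all 26. Among uncalled genes the log2 fold change of Klk1 was −0.01 with the replicate block and that of Hsp90aa1 0.00 with library size alone. With a library left out it ranged from −3.49 to 1.78 for Cela2a, −2.86 to 1.93 for Sycn, −3.49 to 1.55 for Klk1, −2.70 to 2.06 for Ctrb1, −0.83 to 1.15 for S100b, −0.44 to 2.32 for Lyz2, −1.46 to 0.11 for Hsp90aa1 and −3.18 to 2.27 for Clps.

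Counts sum all transcripts, so 22 of the 26 called genes could be read from a start outside O. The filter on low counts, which depends on depth, left 670 of the 1858 counted genes to test.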
